A study of Homo sapiens with 4 samples.

Results

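The SLC25 genes encode the mitochondrial carrier family, and their messenger RNAs were followed in MDA-MB-231, a cell line of human triple-negative breast cancer, after 24 h with Neoribocic or with its solvent DMSO. A gene was counted as a member when its Ensembl ID had a protein-coding symbol made of SLC25A and a number. This rule found 48 of the 20263 genes in the count table, and 42 of them had enough reads to be tested. Neoribocic cells were sequenced in 2 libraries and DMSO cells in 2. Cells of both groups were grown with 10% serum, and the labels' protocols call the compound Rib_CA while the sample names say Neoribocic. The labels examined here give no dose. They also do not tie the libraries to separate cultures, and a p-value here therefore reflects the spread between these libraries alone, which may be technical.

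Mitochondrial carriers are membrane proteins built from repeats of one fold, and nearly all sit in the inner mitochondrial membrane. Each one exchanges or carries a particular set of solutes, such as ADP and ATP, phosphate, citrate, malate, aspartate, glutamate, nucleotides, cofactors, iron or glutathione. They connect the respiratory chain, heme and iron-sulfur synthesis, one-carbon metabolism and fatty acid synthesis on either side of that membrane. All are encoded in the nucleus. In tumor cells they are known for supplying cytosolic citrate and aspartate and for passing ATP to the cytosol.

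The libraries held 41572094 and 43014212 counts for Neoribocic and 34774542 and 37754168 for DMSO. Levels are given in CPM, the count scaled to a library of fixed size, with library sizes adjusted by TMM, the trimmed mean of M-values. Genes of the mitochondrial genome took 5.76% and 7.24% of the counts in the Neoribocic libraries, against 8.68% and 21.7% in the DMSO libraries, so DMSO replicate 2 stood apart. Without the mitochondrial genes 12 carriers were higher and 6 lower in the test used throughout. Markers of the line (VIM, CD44, AXL, CAV1 and EGFR) summed to 4844 and 5131 CPM with Neoribocic and 7129 and 8306 CPM with DMSO. The 7 markers of other breast lines summed to 530 and 412 CPM with Neoribocic and 281 and 375 CPM with DMSO. Of these 7, KRT19 had 184 to 403 CPM, ERBB2 65.6 to 109 CPM, GATA3 8.22 to 21.8 CPM and EPCAM 9.31 to 9.93 CPM. PGR had 0.282 to 1.77 CPM, with CDH1 and ESR1 at or below 0.649 CPM in every library. The part of these shifts in the results was not tested. In bulk RNA, a change in the cells present and a change in RNA per cell cannot be told apart.

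With Neoribocic, 11 of the 42 tested carrier genes rose, 6 fell and 25 did not pass the threshold, an adjusted p of 0.05 in edgeR's quasi-likelihood test over all 13879 genes tested. The rises were led by SLC25A28, which imports iron, SLC25A1, which exports citrate, SLC25A33, which carries pyrimidine nucleotides, SLC25A39, which imports glutathione, and SLC25A11, which exchanges malate for 2-oxoglutarate. The falls were led by SLC25A46, an outer membrane protein, SLC25A13, an aspartate/glutamate carrier, and SLC25A24, which exchanges ATP-Mg for phosphate. These 8 genes changed at least 2-fold. The share of tested carriers called was 40.5%, beside 40.4% of all genes tested, so the family's share was near that of the transcriptome. By direction the shares were 26.2% higher and 14.3% lower among the carriers, beside 19.1% and 21.3% of all genes. The median log2 fold change (Neoribocic minus DMSO) was 0.25 over the tested carriers and 0.01 over all genes. In 32 carriers (76.2%) the levels of the groups did not overlap, beside 75.1% of all genes.

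Under other scalings the division was 14 higher and 2 lower with library totals only, and 14 higher and 3 lower with upper-quartile factors. Without Neoribocic replicate 1 there were 4 higher and 0 lower carriers at the edgeR threshold. The counts were 8 and 2 without Neoribocic replicate 2, 6 and 3 without DMSO replicate 1, and 7 and 3 without DMSO replicate 2. Across genes the log2 fold changes varied with the length and GC content of the transcript, and a change is also given after a correction that removes a smooth trend on both from every library, at least where this moved it by over 1.5 times or changed its call. With the correction 35.4% of all genes were called, 16.3% higher and 19.2% lower, and 8 carriers were higher and 5 lower. In what follows, values in parentheses after an alternative are edgeR, DESeq2 or limma adjusted p, and lists of alternatives leave out the fit with replicate numbers as a block. Of the 17 carriers called without the correction, 4 that rose and 4 that fell kept their call and direction.

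**Figure D1:**
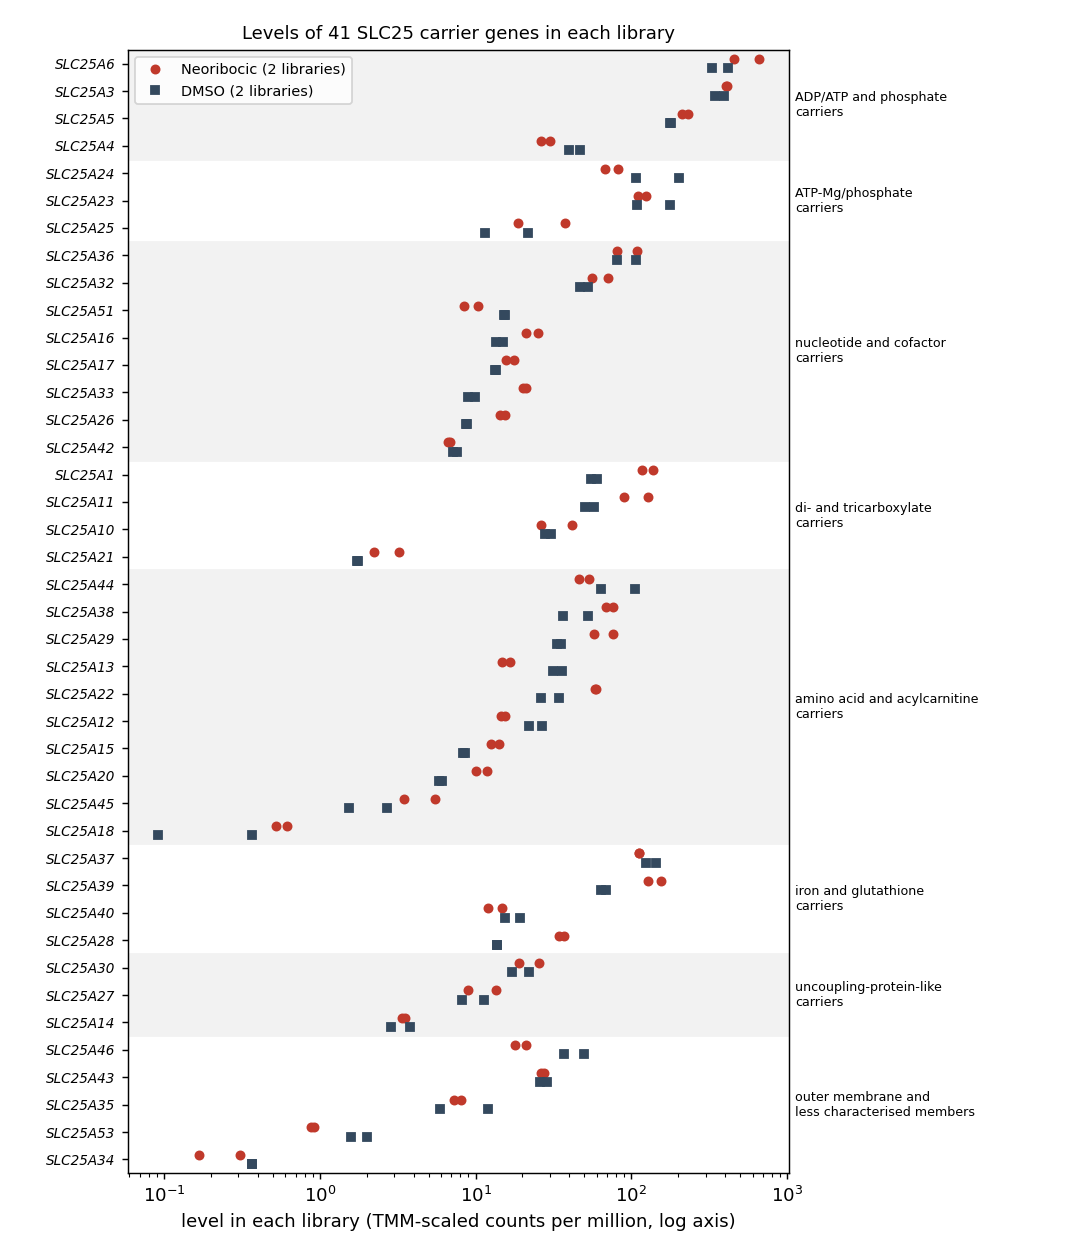
Level of 41 of the 42 tested carrier genes (rows, grouped by what they carry) in TMM-scaled CPM on a log axis, with Neoribocic libraries as red circles and DMSO libraries as dark squares. SLC25A6, SLC25A3 and SLC25A5 lie at the right, and the symbols of the 2 groups are clear of each other in 32 rows.

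**Figure D2:**
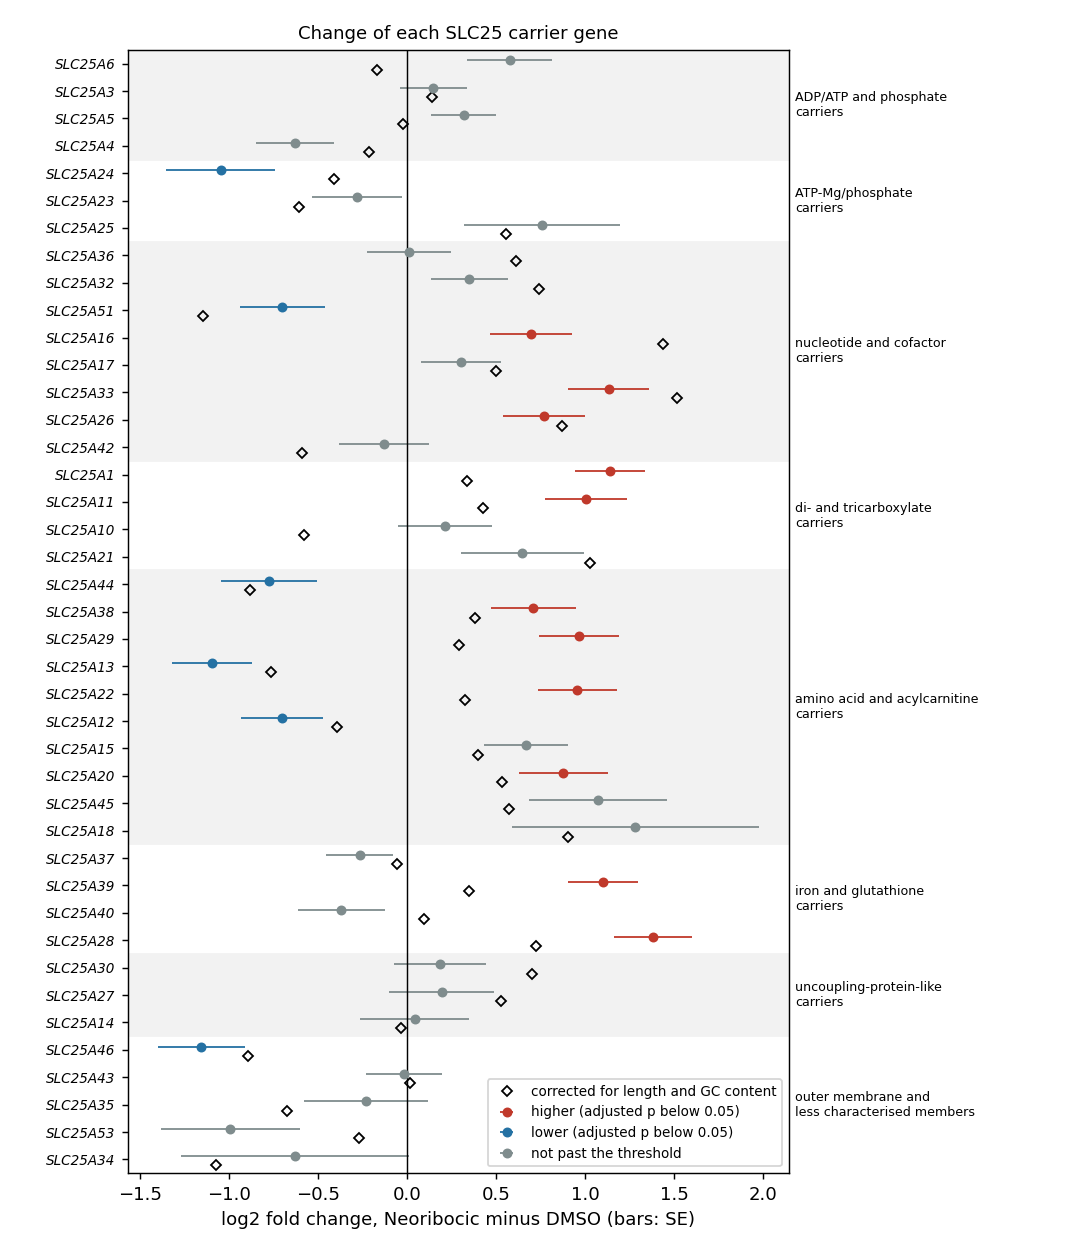
Log2 fold change (Neoribocic minus DMSO) of the same genes with its standard error, coloured by whether edgeR's adjusted p was below 0.05. Open diamonds give the value corrected for transcript length and GC content, and they lie nearer to 0 than the filled symbols for SLC25A1, SLC25A39 and SLC25A28 but farther from 0 for SLC25A16, SLC25A33 and SLC25A51.

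The stretches before the start sites of 4 carriers are shown for the rises that passed in every fit and for the largest falls. SLC25A28 and SLC25A33 passed in the main test and in all 16 alternatives, and SLC25A46 and SLC25A13 had the most negative changes, each losing its call in 1 alternative. Each sequence is the 250 bases upstream of the annotated start, from RefSeq on build GRCh38.p14, written 5′ to 3′ on the gene's strand. Capitals mark matches, on either strand, to the ETS motif CCGGAAGT, the E-box CACGTG or the antioxidant response element TGACNNNGC.
SLC25A28, chr10:99620440-99620689, minus strand: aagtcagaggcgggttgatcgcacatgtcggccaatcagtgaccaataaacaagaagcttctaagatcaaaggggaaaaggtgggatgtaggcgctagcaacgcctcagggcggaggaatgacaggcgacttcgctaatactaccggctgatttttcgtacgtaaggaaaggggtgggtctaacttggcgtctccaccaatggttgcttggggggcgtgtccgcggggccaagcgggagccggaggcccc
SLC25A33, chr1:9539215-9539464, plus strand: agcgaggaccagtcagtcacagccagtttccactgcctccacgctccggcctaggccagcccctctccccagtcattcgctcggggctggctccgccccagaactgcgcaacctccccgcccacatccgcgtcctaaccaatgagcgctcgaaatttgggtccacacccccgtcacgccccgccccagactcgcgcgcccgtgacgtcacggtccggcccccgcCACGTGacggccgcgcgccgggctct
SLC25A46, chr5:110738757-110739006, plus strand: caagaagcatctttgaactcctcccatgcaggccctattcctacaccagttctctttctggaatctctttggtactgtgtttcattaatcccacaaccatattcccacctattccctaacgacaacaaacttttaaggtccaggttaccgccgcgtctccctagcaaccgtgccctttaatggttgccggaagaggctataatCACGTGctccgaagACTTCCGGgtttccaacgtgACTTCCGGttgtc
SLC25A13, chr7:96322099-96322348, minus strand: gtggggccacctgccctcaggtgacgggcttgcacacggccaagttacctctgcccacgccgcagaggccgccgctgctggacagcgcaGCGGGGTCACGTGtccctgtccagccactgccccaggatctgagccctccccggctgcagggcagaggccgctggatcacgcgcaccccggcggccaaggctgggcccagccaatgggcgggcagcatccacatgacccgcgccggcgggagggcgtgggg
The SLC25A46 stretch held 2 ETS matches, at -33 to -26 and -13 to -6 from the start, and an E-box at -47 to -42. SLC25A33 had an E-box at -26 to -21. In SLC25A13 an antioxidant response element match at -161 to -153 shared bases with an E-box at -154 to -149. The SLC25A28 stretch held none of these letters.

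Among the 40 carriers with a promoter in the table, the E-box was in 7 (17.5%), against 6.34% of all 35116 promoters of that length. These 35116 were not filtered by gene type or counted once per gene, while the carriers are protein-coding and were counted once each. The sets are therefore unlike, and the shares are not a measure of enrichment. An ETS match was in 3 (7.5%, against 3.42% of all), and an antioxidant response element match in 5 (12.5%, against 10.9%). The GC box GGGCGG, which can share bases with the other motifs and is not in capitals, was in 28 (70%, against 42.6%). The median GC content was 65.6% over the promoter entries of carriers and 58.0% over all promoters. For this median the carrier entries were not reduced to 1 per gene. The C/EBP-ATF response element TGATGNAAN was found in SLC25A11 alone (2.5%, against 3.13%). The NRF1 core CGCATGCG and the YY1 motif AAGATGGCG were in 0 of the 40, against 1.73% and 0.652% of all promoters. By response, E-boxes stood before 2 of the 10 risen and 3 of the 6 fallen carriers with a promoter, and GC boxes before 7 and 4 of them. A match of letters is a description and not a binding site.

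Of the 4 iron and glutathione carriers, 2 rose and 2 did not pass. SLC25A28 (ENSG00000155287, chromosome 10) encodes mitoferrin 2, the iron importer of most tissues. It stood at 37.1 and 34.3 CPM in the Neoribocic libraries, against 13.7 and 13.7 CPM in the DMSO libraries. The groups were far apart and their libraries close together, and the log2 fold change was 1.38 ± 0.22 (SE; edgeR adjusted p = 0.00247). The correction brought it to 0.72 (edgeR adjusted p = 0.0207). Its paralog SLC25A37 (ENSG00000147454), the mitoferrin known for iron import in red cell precursors, did not pass. It had 112 and 111 CPM in the Neoribocic libraries, against 145 and 123 CPM in the DMSO libraries, a change of -0.27 ± 0.19 (SE; edgeR adjusted p = 0.284) and -0.05 corrected, with the Neoribocic libraries slightly below both DMSO libraries.

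SLC25A39 (ENSG00000013306, chromosome 17), which brings glutathione into mitochondria, had 155 and 129 CPM in the Neoribocic libraries, against 68.5 and 63.7 CPM in the DMSO libraries. Both treated libraries were well above both DMSO libraries, at a log2 fold change of 1.10 ± 0.20 (SE; edgeR adjusted p = 0.00386). With the correction it was at 0.35 (edgeR adjusted p = 0.109), the one alternative of 16 that ended its call. SLC25A40, its close relative, had 12 and 14.8 CPM in the Neoribocic libraries, against 19.2 and 15.4 CPM in the DMSO libraries, and its change of -0.37 ± 0.24 (SE; edgeR adjusted p = 0.251) became 0.09 when corrected.

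Nucleotide and cofactor carriers had 3 rises and 1 fall among 9 tested members. SLC25A33 (ENSG00000171612, chromosome 1) imports pyrimidine nucleotides for mitochondrial DNA and RNA synthesis. Its levels were 20.1 and 21 CPM in the Neoribocic libraries, against 8.88 and 9.85 CPM in the DMSO libraries. The replicates of each group were close together. The log2 fold change was 1.13 ± 0.23 (SE; edgeR adjusted p = 0.00594), and the correction raised it to 1.52 (edgeR adjusted p = 0.00381). SLC25A36, the other pyrimidine nucleotide carrier, overlapped between groups, with 80.4 and 109 CPM with Neoribocic and 107 and 80.6 CPM with DMSO and a change of 0.01 ± 0.24 (SE; edgeR adjusted p = 0.974). After the correction it passed at 0.61 (edgeR adjusted p = 0.0204), with alternatives from 0.0204 to 0.983.

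SLC25A26 (ENSG00000144741, chromosome 3) imports S-adenosylmethionine, the methyl donor. It had 15.4 and 14.4 CPM in the Neoribocic libraries, against 8.83 and 8.66 CPM in the DMSO libraries, and rose by 0.77 (SE 0.23; edgeR adjusted p = 0.0290), or 0.87 corrected. The call was lost when any 1 library was left out (0.0780 to 0.138), in a range of 0.0114 to 0.138. Of its exon bases 15.5% overlap a gene on the opposite strand, whose reads cannot be told apart from its own unless counting used strand. SLC25A16 (ENSG00000122912, chromosome 10), a carrier linked to coenzyme A, had 21.1 and 25.1 CPM in the Neoribocic libraries, against 13.5 and 15 CPM in the DMSO libraries. Its rise of 0.70 (SE 0.23; edgeR adjusted p = 0.0405) grew to 1.44 (edgeR adjusted p = 0.00454) with the correction. It did not pass when any 1 library was left out (0.0779 to 0.168), and the adjusted p ran from 0.00454 to 0.168. SLC25A42, which exchanges coenzyme A for adenine nucleotides, had 6.87 and 6.66 CPM with Neoribocic and 7.61 and 7.17 CPM with DMSO, without overlap but with a small difference (-0.13 ± 0.25, SE; -0.59 corrected).

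SLC25A51 (ENSG00000122696, chromosome 9), which brings NAD into mitochondria, fell. It stood at 8.45 and 10.4 CPM in the Neoribocic libraries, against 15.5 and 15.1 CPM in the DMSO libraries. Both treated libraries were below both controls, at -0.70 ± 0.24 (SE; edgeR adjusted p = 0.0458), and the correction made the fall larger, at -1.15 (edgeR adjusted p = 0.0121). The call ended with library totals only (0.196), with upper-quartile factors (0.0854) and when any 1 library was left out (0.0767 to 0.235), over a range of 0.0121 to 0.235. GENCODE lists 3 pseudogenes named after it, so some of its reads may be divided among copies. Its intronless paralog SLC25A52 had 5 and 6 counts in the Neoribocic libraries and 4 and 2 in the DMSO libraries and was not tested.

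SLC25A32, the folate carrier of the inner membrane, had 55.9 and 70.3 CPM with Neoribocic and 46.6 and 52.4 CPM with DMSO. Its change was 0.35 ± 0.22 (SE; edgeR adjusted p = 0.220) and it passed after the correction, at 0.74 (edgeR adjusted p = 0.0223), in a range of 0.0223 to 0.626 over the alternatives. Of its exon bases 69.7% are shared with another annotated gene on its strand, so its counts are uncertain. SLC25A17, a cofactor carrier of peroxisomes, was at 0.30 ± 0.22 (SE), or 0.50 corrected, and passed in none of the 16 alternatives.

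Among the 4 di- and tricarboxylate carriers 2 rose. SLC25A1 (ENSG00000100075, chromosome 22) is the citrate carrier that feeds cytosolic acetyl-CoA. It had 137 and 118 CPM in the Neoribocic libraries, against 55.2 and 60.5 CPM in the DMSO libraries. The treated libraries were both far above the DMSO libraries, at 1.14 ± 0.20 (SE; edgeR adjusted p = 0.00337). The correction reduced it to 0.34 (edgeR adjusted p = 0.0942), the only alternative in which it did not pass. GENCODE lists 5 pseudogenes named after it. SLC25A11 (ENSG00000108528, chromosome 17), the malate/2-oxoglutarate carrier of the malate-aspartate shuttle, had 127 and 89.8 CPM in the Neoribocic libraries, against 50.6 and 57.5 CPM in the DMSO libraries. Neoribocic replicate 1 was the highest of the 4 libraries, and the change was 1.0 ± 0.23 (SE; edgeR adjusted p = 0.0102). It did not pass with the correction (0.0709), without DMSO replicate 1 (0.0562) and without Neoribocic replicate 1 (0.0837), where the corrected value was 0.43 and the range 6.65e-04 to 0.0837.

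SLC25A10, the dicarboxylate carrier, overlapped between groups, with 41.3 and 26.3 CPM with Neoribocic and 27.8 and 30.5 CPM with DMSO. Its value of 0.21 ± 0.26 (SE; edgeR adjusted p = 0.547) turned to -0.58 (edgeR adjusted p = 0.0454) with the correction, and its adjusted p ran from 0.0454 to 0.768. Another annotated gene on its strand shares 46.6% of its exon bases. SLC25A21, the 2-oxodicarboxylate carrier of lysine and tryptophan breakdown, was low, with 2.24 and 3.22 CPM with Neoribocic and 1.75 and 1.74 CPM with DMSO. It was at 0.65 ± 0.35 (SE; edgeR adjusted p = 0.163) and passed at 1.03 (edgeR adjusted p = 0.0387) with the correction alone (range 0.0387 to 0.576). Genes on the opposite strand together cover 28.8% of its exon bases.

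Amino acid and acylcarnitine carriers had 4 rises and 3 falls among 10 tested members. SLC25A13 (ENSG00000004864, chromosome 7) encodes citrin, the calcium-regulated carrier that exports aspartate in exchange for glutamate. It stood at 14.8 and 16.6 CPM in the Neoribocic libraries, against 35.7 and 31.4 CPM in the DMSO libraries. Both treated libraries were far below both controls, and the change was -1.09 ± 0.22 (SE; edgeR adjusted p = 0.00660), or -0.77 (edgeR adjusted p = 0.0148) corrected. Of the 16 alternatives it failed only without Neoribocic replicate 1 (adjusted p = 0.0515). The other aspartate/glutamate carrier, SLC25A12 (ENSG00000115840, chromosome 2), fell too, with 14.5 and 15.5 CPM with Neoribocic and 26.7 and 22 CPM with DMSO. Its change of -0.70 ± 0.23 (SE; edgeR adjusted p = 0.0399) was -0.39 when corrected and did not pass with the correction (0.112), with library totals only (0.183), with upper-quartile factors (0.0706) and when any 1 library was left out (0.0554 to 0.170), over a range of 0.0194 to 0.183.

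SLC25A22 (ENSG00000177542, chromosome 11) imports glutamate with a proton. It had 59.7 and 58.7 CPM in the Neoribocic libraries, against 34.4 and 26.5 CPM in the DMSO libraries. The treated libraries nearly coincided, at 0.96 ± 0.22 (SE; edgeR adjusted p = 0.0107), and the correction brought the rise to 0.33. Its call was lost with the correction (0.248), without DMSO replicate 2 (0.0592) and without Neoribocic replicate 1 (0.0541), with a range of 4.74e-04 to 0.248. Its paralog SLC25A18 was near the limit of detection, with 26 and 25 counts in the Neoribocic libraries and 13 and 3 in the DMSO libraries (1.28 ± 0.69, SE, edgeR adjusted p = 0.166).

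SLC25A29 (ENSG00000197119, chromosome 14), a carrier of basic amino acids, had 76.7 and 57.9 CPM in the Neoribocic libraries, against 35.5 and 33.3 CPM in the DMSO libraries. It rose by 0.97 (SE 0.22; edgeR adjusted p = 0.0106), or 0.29 corrected. It did not pass with the correction (0.178), without DMSO replicate 2 (0.0538) and without Neoribocic replicate 1 (0.0807) (range 5.24e-04 to 0.178). SLC25A20 (ENSG00000178537, chromosome 3), the carnitine/acylcarnitine carrier of fatty acid oxidation, also rose. It had 11.8 and 10.1 CPM in the Neoribocic libraries, against 5.81 and 6.10 CPM in the DMSO libraries, a change of 0.88 ± 0.25 (SE; edgeR adjusted p = 0.0242) and 0.54 corrected. Its call ended with the correction (0.0716) and when any 1 library was left out (0.0549 to 0.149) (range 0.00950 to 0.149).

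SLC25A38 (ENSG00000144659, chromosome 3), which supplies mitochondrial glycine for heme synthesis, had 76.5 and 68.9 CPM in the Neoribocic libraries, against 36.4 and 52.4 CPM in the DMSO libraries. DMSO replicate 2 was the nearer of the controls, and the rise was 0.71 ± 0.24 (SE; edgeR adjusted p = 0.0424). Without DMSO replicate 1 it was 0.47, and corrected it was 0.38. It did not pass with the correction (0.147), without DMSO replicate 1 (0.194), without Neoribocic replicate 1 (0.174) and without Neoribocic replicate 2 (0.0839) (range 0.0171 to 0.194). SLC25A44 (ENSG00000160785, chromosome 1), a carrier of branched-chain amino acids, fell. It had 45.9 and 53.5 CPM in the Neoribocic libraries, against 64.2 and 106 CPM in the DMSO libraries, with DMSO replicate 2 well above replicate 1. The change was -0.78 ± 0.27 (SE; edgeR adjusted p = 0.0484), or -0.88 (edgeR adjusted p = 0.0319) corrected and -0.36 without DMSO replicate 2. Its call was lost with RLE factors (0.050), with library totals only (0.120), without the robust option (0.0569), with upper-quartile factors (0.0859), with limma-voom (0.0697), without DMSO replicate 2 (0.307), without Neoribocic replicate 1 (0.228) and without Neoribocic replicate 2 (0.0985), in a range of 0.0185 to 0.307.

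The ornithine carrier gene SLC25A15 was just outside the threshold. It had 14.2 and 12.6 CPM in the Neoribocic libraries, against 8.29 and 8.54 CPM in the DMSO libraries, without overlap, at 0.67 ± 0.24 (SE; edgeR adjusted p = 0.0504), or 0.40 corrected. Over the alternatives its adjusted p ran from 0.0247 to 0.218, and it passed with DESeq2 (0.0349), with RLE factors (0.0483), with the CPM filter (0.0456), with halved counts (0.0477), with library totals only (0.0414), without mitochondrial genes (0.0474), without the robust option (0.0484) and with upper-quartile factors (0.0247). GENCODE lists 5 pseudogenes named after it. The second ornithine carrier gene, SLC25A2, had 4 counts in Neoribocic replicate 1 and 0 in the other libraries. SLC25A45 was low, with 5.46 and 3.45 CPM with Neoribocic and 1.55 and 2.68 CPM with DMSO and a change of 1.07 ± 0.39 (SE; edgeR adjusted p = 0.0545), or 0.57 corrected. It passed with the CPM filter (0.0476), with halved counts (0.0478), with library totals only (0.0187), without a count filter (0.0424), with upper-quartile factors (0.0329) and without DMSO replicate 2 (0.0369), over a range of 0.0187 to 0.328.

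The ADP/ATP and phosphate carriers, which include the 3 highest levels per kilobase in the family, had 0 calls among 4 tested genes in edgeR. At an unadjusted p below 0.05 SLC25A4 and SLC25A6 qualified, and DESeq2 called SLC25A4. Per kilobase of transcript, SLC25A6 had 271 ± 68.5 CPM with Neoribocic and 181 ± 31.5 CPM with DMSO (SD, n = 2 each). For SLC25A3 it was 243 ± 3.11 with Neoribocic and 219 ± 21.8 with DMSO, and for SLC25A5 175 ± 11.2 with Neoribocic and 140.2 ± 0.487 CPM per kilobase with DMSO. With Neoribocic, SLC25A6 was above SLC25A3 in replicate 1 (319 against 241 CPM per kilobase) and below it in replicate 2 (222 against 245). With DMSO it was below SLC25A3 in both libraries, by little in replicate 2 (159 and 203.7 against 235 and 204.0). SLC25A5 stood below SLC25A3 in both groups. Of all carrier counts, the 3 genes together took 45.9% and 42.8% in the Neoribocic libraries, against 39.9% and 41.6% in the DMSO libraries.

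SLC25A6 (ENSG00000169100), the ADP/ATP carrier made in most tissues, lies in the pseudoautosomal region shared by the sex chromosomes. It had 658 and 458 CPM in the Neoribocic libraries, against 328 and 420.1 CPM in the DMSO libraries. The treated libraries differed widely from each other, and the change was 0.58 ± 0.24 (SE; edgeR adjusted p = 0.0842), or -0.17 corrected. It passed with library totals only (0.0194), with upper-quartile factors (0.0421) and without Neoribocic replicate 2 (0.0481), over a range of 0.0194 to 0.451. SLC25A5 (ENSG00000005022, chromosome X), the isoform known from proliferating cells, had 233 and 213 CPM in the Neoribocic libraries, against 179 and 178 CPM in the DMSO libraries. The groups did not overlap, but the difference of 0.32 ± 0.18 (SE; edgeR adjusted p = 0.187) did not pass in any of the 16 alternatives and was -0.02 when corrected. GENCODE lists 9 pseudogenes named after SLC25A5 and 6 after SLC25A6, so reads of both may be divided among copies, and a gene on the opposite strand covers 15.1% of the exon bases of SLC25A5.

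SLC25A4 (ENSG00000151729, chromosome 4), the isoform of heart and muscle, had 29.9 and 26.2 CPM in the Neoribocic libraries, against 46.8 and 39.7 CPM in the DMSO libraries. It was lower in both treated libraries, at -0.63 ± 0.22 (SE; edgeR adjusted p = 0.0501), a value at the edge of the threshold. It passed with DESeq2 (0.0257), with RLE factors (0.0499), with halved counts (0.0487), without a count filter (0.0498) and without the robust option (0.0492), over a range of 0.0257 to 0.397, and was at -0.21 when corrected. The phosphate carrier SLC25A3 (ENSG00000075415, chromosome 12), which supplies ATP synthase, had 405 and 412 CPM in the Neoribocic libraries, against 394 and 342 CPM in the DMSO libraries, at 0.15 ± 0.19 (SE; edgeR adjusted p = 0.550). SLC25A31, the isoform of male germ cells, had 0 counts in all 4 libraries, which allows up to 0.0915 CPM in DMSO replicate 2, the highest of the 4 limits (3 counts on the same TMM scale, for counting error only).

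As a share of the summed ADP/ATP carrier level per transcript length, SLC25A6 made up 62.8% and 56.3% in the Neoribocic libraries, against 51.3% and 57.8% in the DMSO libraries. SLC25A5 made up 35.9% and 42.2% in the Neoribocic libraries, against 45.3% and 39.7% in the DMSO libraries. For SLC25A4 the share was 1.32% and 1.49% in the Neoribocic libraries, against 3.40% and 2.54% in the DMSO libraries. The shares of SLC25A6 and SLC25A5 overlapped between groups, while that of SLC25A4 was lower in both treated libraries. With 2 libraries against 2, an exact two-sided permutation test cannot go below p = 0.333, so the shares are a description.

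ATP-Mg/phosphate carriers, most of which use calcium-binding domains to adjust the adenine nucleotide pool of the matrix, had 1 fall among 3 tested members. SLC25A24 (ENSG00000085491, chromosome 1) had 82.3 and 67.8 CPM in the Neoribocic libraries, against 202 and 108 CPM in the DMSO libraries. The DMSO libraries differed widely from each other, and the change was -1.05 ± 0.31 (SE; edgeR adjusted p = 0.0308). Without DMSO replicate 1 it was -0.52, and with the correction -0.41. Its call ended with the correction (0.324), with library totals only (0.0551), without DMSO replicate 1 (0.147), without Neoribocic replicate 1 (0.0971) and without Neoribocic replicate 2 (0.138), in a range of 0.00220 to 0.324. SLC25A23 overlapped between groups, with 111 and 125 CPM with Neoribocic and 109 and 177 CPM with DMSO (-0.28 ± 0.25, SE, edgeR adjusted p = 0.399, -0.61 corrected). SLC25A25 also overlapped, with 37.5 and 18.7 CPM with Neoribocic and 11.5 and 21.7 CPM with DMSO (0.76 ± 0.44, SE, edgeR adjusted p = 0.210). Genes on the opposite strand together cover 16.2% of its exon bases. SLC25A41 had 5 counts in Neoribocic replicate 1 and 0 elsewhere.

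The 3 members related to uncoupling proteins did not pass in edgeR, and SLC25A30 alone did so after the correction. SLC25A30 had 19 and 25.7 CPM with Neoribocic and 22.1 and 17.2 CPM with DMSO, at 0.19 ± 0.26 (SE; edgeR adjusted p = 0.586), and 0.70 (edgeR adjusted p = 0.0265) corrected (range over the alternatives 0.0265 to 0.953). SLC25A27 was at 0.20 ± 0.29 (SE; 0.53 corrected) and SLC25A14 at 0.04 ± 0.30 (SE; -0.03 corrected), both with overlapping libraries. At an unadjusted p below 0.05 none of the 3 qualified.

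SLC25A46 (ENSG00000164209, chromosome 5) departs from the family pattern, since its protein sits in the outer membrane and takes part in mitochondrial shape and lipid exchange. It had 18 and 21 CPM in the Neoribocic libraries, against 49.9 and 36.7 CPM in the DMSO libraries. Both treated libraries were far below both controls, at -1.15 ± 0.24 (SE; edgeR adjusted p = 0.00742), the largest fall in the family, and -0.89 (edgeR adjusted p = 0.0126) corrected. It failed only without Neoribocic replicate 1 (adjusted p = 0.0585). SLC25A53, a member with no settled substrate, had 0.918 and 0.885 CPM with Neoribocic and 1.58 and 2.01 CPM with DMSO, at -0.99 ± 0.39 (SE; edgeR adjusted p = 0.0720) and -0.27 corrected, and passed with the CPM filter (0.0456) in a range of 0.0456 to 0.593. SLC25A43 had 26.4 and 27.6 CPM with Neoribocic and 25.9 and 28.8 CPM with DMSO, SLC25A35 8.07 and 7.29 CPM with Neoribocic and 5.95 and 12.1 CPM with DMSO, and SLC25A34 0.306 and 0.168 CPM with Neoribocic and 0.367 and 0.366 CPM with DMSO, with changes of -0.02, -0.23 and -0.63 (0.02, -0.67 and -1.07 corrected) that passed in none of the alternatives run for them. A gene on the opposite strand covers 33.2% of the exon bases of SLC25A35. SLC25A47 had 4 counts in Neoribocic replicate 2 and 0 elsewhere, and SLC25A48 had 0 counts in all 4 libraries.

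Ratios of counts within a library do not depend on how libraries are scaled, and 9 pairs of related carriers, some chosen with their values known, are compared that way. SLC25A28 over SLC25A37 was 0.332 and 0.308 in the Neoribocic libraries, against 0.0946 and 0.111 in the DMSO libraries. The ratio of SLC25A33 to SLC25A36 was 0.250 and 0.193 in the Neoribocic libraries, against 0.0827 and 0.122 in the DMSO libraries. SLC25A39 over SLC25A40 gave 12.9 and 8.70 in the Neoribocic libraries, against 3.56 and 4.14 in the DMSO libraries. In these 3 pairs one carrier rose and its paralog did not pass in the main test, and the groups did not overlap. With the correction this division of calls was kept by SLC25A28 and SLC25A37 alone. SLC25A39 then did not pass either (0.35), and SLC25A36 passed as higher (0.61), like SLC25A33.

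For SLC25A16 over SLC25A42 the ratio was 3.07 and 3.78 in the Neoribocic libraries, against 1.78 and 2.09 in the DMSO libraries. SLC25A6 over SLC25A4 was 22 and 17.5 in the Neoribocic libraries, against 7.01 and 10.6 in the DMSO libraries. These pairs were apart as well. Of the aspartate/glutamate carriers, SLC25A13 over SLC25A12 was 1.02 and 1.07 in the Neoribocic libraries, against 1.34 and 1.42 in the DMSO libraries, lower in both treated libraries. SLC25A6 over SLC25A5 overlapped, at 2.83 and 2.16 in the Neoribocic libraries, against 1.83 and 2.36 in the DMSO libraries. SLC25A25 over SLC25A24 was 0.456 and 0.276 in the Neoribocic libraries, against 0.0568 and 0.202 in the DMSO libraries, apart but with wide spread. SLC25A23 over SLC25A24 overlapped, at 1.35 and 1.85 in the Neoribocic libraries, against 0.539 and 1.64 in the DMSO libraries. None of these differences could reach p below 0.333 in an exact permutation test, and the partners of most pairs differ in length and GC content.

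**Figure D3:**
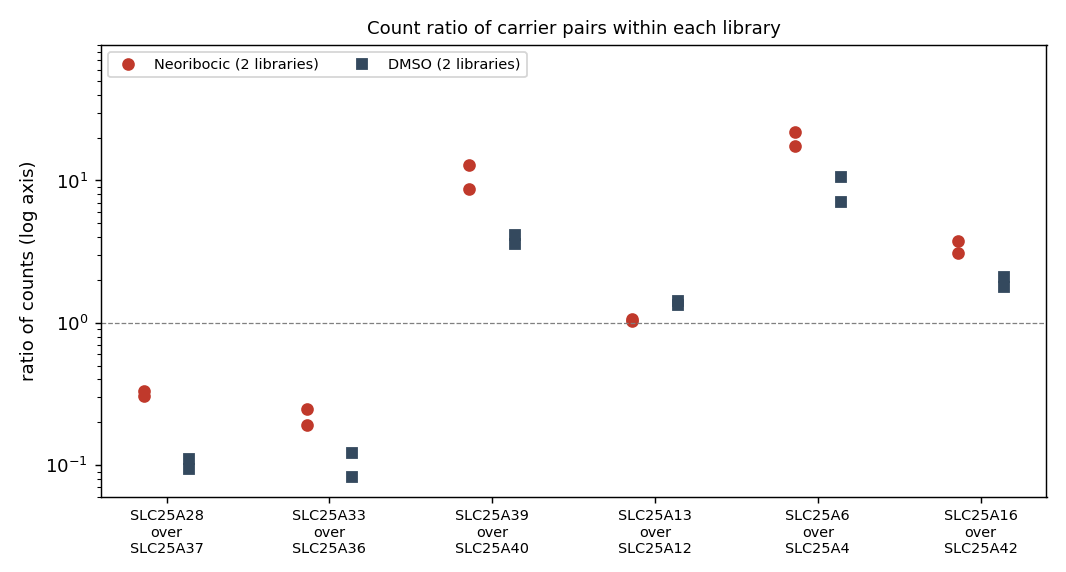
Ratio of the counts of 2 related carriers within each library (log axis), Neoribocic as red circles and DMSO as dark squares, with a dashed line at 1. In the 6 pairs drawn the circles and squares do not overlap, and in SLC25A13 over SLC25A12 the circles are the lower ones. The pairs that overlapped, SLC25A6 over SLC25A5 and SLC25A23 over SLC25A24, are not drawn, nor is SLC25A25 over SLC25A24. The separation seen here therefore follows from the choice of pairs, and its share among ratios of other gene pairs was not computed.

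Transcript composition differed between the carriers that rose and those that fell. The median GC content was 58.1% in the 11 that rose, 44.3% in the 6 that fell and 49.5% in the other 25. Median transcript lengths were 2147 bases for those that rose, 3058 for those that fell and 2785 for the rest. Over the 42 tested carriers, which share their libraries, the log2 fold change correlated with GC content at Pearson r = 0.43 and Spearman rho = 0.42. With length it correlated at Spearman rho = -0.44. Across all 13862 tested genes with both properties the rho values were 0.45 for GC content and -0.40 for length, of the same sign and similar size as in the carriers. Carriers are not independent replicates, and the part of this trend in each change was not tested beyond the corrected values.

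**Figure D4:**
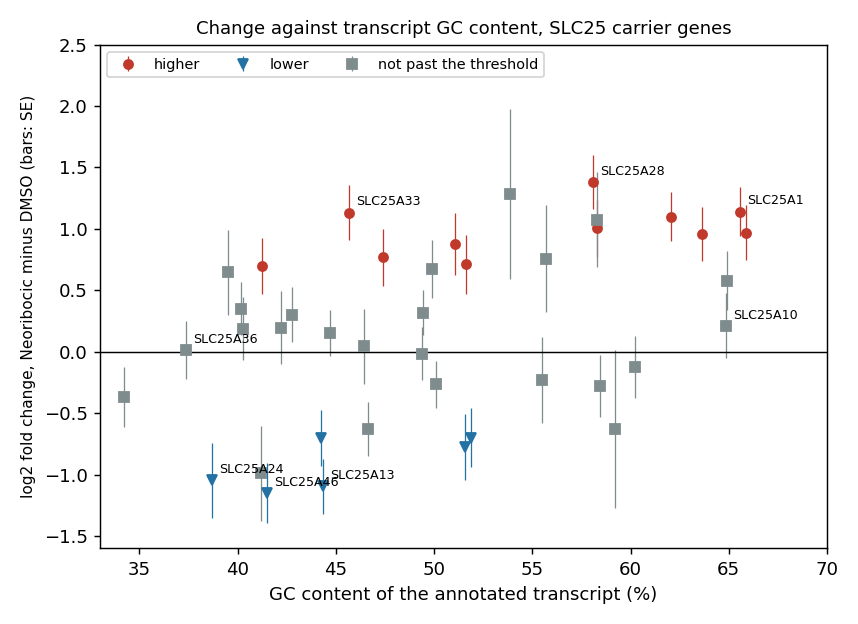
Log2 fold change (Neoribocic minus DMSO, with its standard error) of the same 41 carriers against the GC content of the annotated transcript in percent. Of the carriers above 55% GC, 6 rose, 0 fell and 8 did not pass in edgeR. The share called among all genes above 55% GC was not computed, and over all genes the change also increased with GC content (Spearman rho = 0.45). SLC25A33 at 45.7% and SLC25A46 at 41.5% have similar GC content and opposite changes.

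Genes around the carriers were described from 13 lists, whose counts stand beside 19.1% higher and 21.3% lower among all genes tested, or 16.3% and 19.2% with the correction. Among 4 tested relatives without an SLC25A symbol, 2 rose and 1 fell, with a median of 0.62 against 0.01 over all genes. UCP2, the uncoupling protein of many tissues, had 71.3 and 71.5 CPM in the Neoribocic libraries, against 28.1 and 28.3 CPM in the DMSO libraries. Its rise of 1.34 ± 0.20 (SE; edgeR adjusted p = 0.00196) passed in every alternative and was 0.77 corrected. UCP3, the muscle form, was at 0.165 and 0.253 CPM in the Neoribocic libraries, against 2.76 and 2.41 CPM in the DMSO libraries. It fell, at -3.60 ± 0.46 (SE; edgeR adjusted p = 0.00116), and also passed in every alternative. The treated and control libraries of both genes were far apart and in opposite directions. MTCH1, an outer membrane relative, rose by 0.99 (0.37 corrected), with calls lost with the correction (0.0901) and without Neoribocic replicate 1 (0.0512) in a range of 6.49e-05 to 0.0901.

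In the machinery that imports carriers into the inner membrane, 5 of 16 tested genes rose and 0 fell, with a median of 0.46 (corrected, 4 higher and 1 lower, median 0.39). TOMM40, the channel of the outer membrane translocase, was the one lower after the correction and is named for that, having been picked after its values were seen. It was at -0.72 (edgeR adjusted p = 0.0161) corrected and 0.10 ± 0.22 (SE; edgeR adjusted p = 0.739) otherwise (range 0.0161 to 0.919). TIMM29, a subunit of the TIM22 complex that inserts carriers, had 33 and 28.3 CPM in the Neoribocic libraries, against 12.5 and 9.70 CPM in the DMSO libraries, a change of 1.47 ± 0.24 (SE; edgeR adjusted p = 0.00294), or 0.69 corrected. Its call ended with the correction (0.0505) in a range of 6.93e-07 to 0.0505. TIMM13, a small chaperone of the intermembrane space, rose by 1.17 (0.37 corrected) and the receptor gene TOMM22 by 0.75. Over the alternatives their adjusted p ran from 0.00172 to 0.265 and 0.00720 to 0.124, with calls of TIMM13 lost with the correction (0.265), without DMSO replicate 1 (0.0939), without DMSO replicate 2 (0.127) and without Neoribocic replicate 1 (0.130) and of TOMM22 without DMSO replicate 2 (0.124), without Neoribocic replicate 1 (0.122) and without Neoribocic replicate 2 (0.0603).

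Other inner membrane transporters moved both ways: 5 of 21 tested genes rose and 3 fell, with a median of -0.06 (corrected, 4 higher and 3 lower, median 0.10). SLC8B1, the mitochondrial sodium/calcium exchanger, had 99.7 and 67.4 CPM in the Neoribocic libraries, against 36.9 and 33.5 CPM in the DMSO libraries, at 1.25 ± 0.24 (SE; edgeR adjusted p = 0.00549). It passed in every alternative. MPC2, a subunit of the mitochondrial pyruvate carrier, rose by 1.32 and was 1.52 corrected, with calls lost without DMSO replicate 2 (0.0531) and without Neoribocic replicate 1 (0.0554) in a range of 1.21e-04 to 0.0554. Of the exon bases of MPC2, 22.5% lie under a gene on the opposite strand. Among outer membrane channels and their partners, 2 of 5 tested genes rose and 1 fell, with a median of 0.14 (corrected, 2 higher and 1 lower, median -0.22). VDAC2, a voltage-dependent anion channel, had 192 and 190.0 CPM in the Neoribocic libraries, against 81.8 and 71.1 CPM in the DMSO libraries, a change of 1.32, while VDAC3 had 32 and 33.2 CPM with Neoribocic and 74.8 and 54.8 CPM with DMSO, a change of -0.99 whose call was lost without DMSO replicate 1 (0.0627) and without Neoribocic replicate 1 (0.0673) (range 6.29e-04 to 0.0673).

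For the enzymes that work with the malate, aspartate and citrate carriers, 3 of 13 tested genes rose and 1 fell, with a median of -0.10 (corrected, 2 higher and 1 lower, median 0.03). GOT1, the cytosolic aspartate aminotransferase of the malate-aspartate shuttle, had 193 and 168 CPM in the Neoribocic libraries, against 54.4 and 48.3 CPM in the DMSO libraries. Treated libraries were far above the controls, at 1.82 ± 0.20 (SE; edgeR adjusted p = 7.83e-04), and 1.57 corrected. A gene on the opposite strand covers 19.3% of its exon bases. The glutathione enzymes, which share a solute with SLC25A39, were listed together with PRDX3, TXN2 and AFG3L2. In that list 5 of 10 tested genes rose and 0 fell, with a median of 0.76 (corrected, 4 higher and 0 lower, median 0.19). GPX1, a glutathione peroxidase, had 643 and 415 CPM in the Neoribocic libraries, against 125 and 132 CPM in the DMSO libraries, and GCLM, a subunit of the first enzyme of glutathione synthesis, had 116 and 137 CPM in the Neoribocic libraries, against 66.6 and 53.7 CPM in the DMSO libraries. Their log2 fold changes were 2.04 ± 0.25 and 1.07 ± 0.21 (SE; edgeR adjusted p = 0.00100 and 0.00553), and both passed in every alternative, at 1.06 and 1.69 corrected.

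In the list of iron-sulfur and heme genes, which use the iron of the mitoferrins and the glycine of SLC25A38, 6 of 14 tested genes rose and 0 fell, with a median of 0.39 (corrected, 4 higher and 0 lower, median 0.28). ISCU, the iron-sulfur scaffold, had 134 and 126 CPM in the Neoribocic libraries, against 62 and 61.1 CPM in the DMSO libraries, at 1.08 ± 0.19 (SE; edgeR adjusted p = 0.00342). PPOX, an enzyme of heme synthesis, was at 1.38 ± 0.24 (SE; edgeR adjusted p = 0.00325; 0.74 corrected), with 24.3% of its exon bases under a gene on the opposite strand. Carnitine and coenzyme A genes were divided: 5 of 13 tested genes rose and 2 fell, with a median of 0.34 (corrected, 4 higher and 2 lower, median -0.01). CPT2, the inner membrane carnitine palmitoyltransferase that works with SLC25A20, had 28.6 and 34 CPM in the Neoribocic libraries, against 10.4 and 11.4 CPM in the DMSO libraries, a rise of 1.52, and CPT1A of the outer membrane was lower, at -0.58 ± 0.19 (SE; edgeR adjusted p = 0.0425). COASY, the last enzyme of coenzyme A synthesis, rose by 1.45 (0.93 corrected). Genes of the first step moved both ways. PANK1 fell by 1.17 on the log2 scale, while PANK2 rose in the main test. The call of PANK2 was lost with the correction (0.39, edgeR adjusted p = 0.0690), without a count filter (0.0513), without the robust option (0.0509) and when any 1 library was left out. The call of CPT1A was lost with library totals only (0.230), with upper-quartile factors (0.0967) and when any 1 library was left out (0.0835 to 0.178) (range 0.0196 to 0.230), and those of ISCU, PPOX, CPT2, COASY and PANK1 passed in every alternative.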

How the data were processed

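The deposited table holds raw counts per human Ensembl gene, whole numbers with no normalization, as read from the values. The submitters' processing notes list the builds GRCm38 and mm10, both of mouse, although the IDs are human. The aligner, counter, strand setting and human build, not given in the sources used here, can change counts of overlapping genes. Per the labels' protocols, each library was made from 1.4 µg of total RNA with an mRNA kit. Small counts were mostly even (62.3% to 65.4% of counts below 20), and halved counts were therefore 1 of the alternatives.

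Symbols came from the gene name table (20148 of 20263 IDs found), gene type, transcript length, GC content and exon overlap from GENCODE release 29 (1 principal transcript per gene, the longest of several). Genes were filtered with filterByExpr, scaled by TMM and tested with edgeR 4.0.16 in R 4.3.3 (robust quasi-likelihood, group as the only term, Benjamini-Hochberg over all genes tested). The standard error is the log2 fold change divided by the square root of F. The correction used a smooth surface of log2 CPM (prior count 3) on GC content and log length, fitted per library with mgcv 1.9-3, as an offset. The 16 alternatives were DESeq2 1.42.0, limma-voom 3.58.1, RLE and upper-quartile factors, library totals only, no count filter, a filter at 1 CPM in 2 libraries, the robust option off, the replicate block, the correction, no mitochondrial genes, halved counts and each library left out. The main fit and the correction alone were tested on simulated counts, in which far fewer genes changed than were called here. The other alternatives were not tested that way. Calls near the threshold are uncertain with 2 libraries a group.

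The members and lists were chosen with earlier results of these data known. Full values are given for members past the threshold (up to 12 rises and 12 falls, mean of at least 1 CPM) and for the paralog families, and for up to 3 genes per direction of each list by smallest p. One list symbol was matched by its synonym. No protein sequences were used here. Values of 1 tested member and of some list genes are not reported here, but these genes are in all counts and medians.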

Additional observations from a re-analysis of the deposited data

How the results depend on the processing

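Of 653 values of 41 carriers recomputed under the alternatives, 546 kept their direction and side of the threshold, 59 lost the call, 28 gained one and 20 changed sign, the last among carriers with no call in the main test. Leaving out 1 library gave 4 to 10 called carriers (4 to 8 higher, 0 to 3 lower), 2468 to 4536 called genes in all (1001 to 2215 higher, 1467 to 2382 lower) and 28 to 61 called genes of the 13 lists, against 17, 5610 and 66 with all libraries. At an adjusted p of 0.01 there were 6 called carriers (4 higher, 2 lower), 2883 called genes (1138 higher, 1745 lower) and 29 called list genes. Lower carriers numbered 2 with library totals and 3 with upper-quartile factors. With the replicate block, 15 carriers (11 higher, 4 lower), 5594 genes in all and 66 list genes were called. Among the genes named here, the block ended the calls of SLC25A12 (0.0580), SLC25A16 (0.0572), SLC25A51 (0.0624), CPT1A (0.0836), SHMT1 (0.0542) and PANK2 (0.0944). It gave one to SLC25A45 (0.0279, all edgeR adjusted p). The deviations of same-numbered libraries correlated at -0.05 across genes, and the samples share only a number. Per coding length, an alternative chosen after seeing the data, the mean shares of SLC25A6, SLC25A5 and SLC25A4 were 68.6%, 27.9% and 3.50% with Neoribocic and 62.5%, 30.1% and 7.34% with DMSO. The sign turned with the length and GC correction for SLC25A5 at -0.0213, SLC25A6 at -0.17, SLC25A10 at -0.58, SLC25A14 at -0.0323, SLC25A40 at 0.0935, SLC25A43 at 0.0186 (log2). Among other scalings it turned for SLC25A42 (0.0393 with library totals), SLC25A43 (0.162 with library totals), SLC25A43 (0.106 with upper-quartile factors). With 1 library left out the log2 fold change crossed 0 for SLC25A10 (-0.14 to 0.50), SLC25A14 (-0.14 to 0.26), SLC25A23 (-0.59 to 0.12), SLC25A27 (-0.12 to 0.47), SLC25A30 (-0.0436 to 0.39), SLC25A35 (-0.65 to 0.38), SLC25A36 (-0.22 to 0.23), SLC25A43 (-0.0928 to 0.0743). The causes of these shifts were not tested. Depth limits the 6 untested carriers, which had 0 to 6 counts a library, and leaving out a library leaves 1 sample in its group, assumed to vary like the others.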

Other observations

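Several lists around the carriers held further changes, described by their counts and medians beside a median of 0.01 over all genes tested, of which 19.1% were higher and 21.3% lower (0.00 corrected). Among NAD synthesis genes 4 of 8 tested genes rose and 0 fell, with a median of 0.60 (corrected, 4 higher and 0 lower, median 0.72). NMNAT1, which makes NAD in the nucleus, had 27.8 and 27.6 CPM in the Neoribocic libraries, against 11.6 and 10.7 CPM in the DMSO libraries, a change of 1.31 ± 0.22 (SE; edgeR adjusted p = 0.00317) that passed in every alternative, while the NAD carrier gene SLC25A51 fell. Of glutamine, proline and ornithine enzymes 4 of 11 tested genes rose and 2 fell, with a median of 0.18 (corrected, 4 higher and 0 lower, median 0.28). ASL, argininosuccinate lyase, had 97.3 and 59.8 CPM in the Neoribocic libraries, against 17.4 and 18.6 CPM in the DMSO libraries, at 2.12 ± 0.27 (SE; edgeR adjusted p = 0.00123). ASL passed in every alternative, with 17.6% of its exon bases shared with another annotated gene on its strand.

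The list of one-carbon and serine-glycine enzymes held mitochondrial and cytosolic ones. In it 4 of 10 tested genes rose and 2 fell, with a median of 0.50 (corrected, 4 higher and 2 lower, median 0.31). The 4 rises were in SHMT2, MTHFD2, MTHFD2L and FPGS, while MTHFD1L, ALDH1L2, GCSH and AMT did not pass in the main test. The 2 falls were in the cytosolic enzymes MTHFD1 and SHMT1. SHMT1 was at -0.70 (edgeR adjusted p = 0.0351). Its call was lost with library totals only (0.169), with upper-quartile factors (0.0622) and when any 1 library was left out. The mitochondrial enzyme SHMT2 had 656 and 489 CPM in the Neoribocic libraries, against 276 and 276 CPM in the DMSO libraries, and the cytosolic enzyme MTHFD1 had 123 and 135 CPM in the Neoribocic libraries, against 353 and 265 CPM in the DMSO libraries. Their changes were 1.05 ± 0.21 and -1.26 ± 0.21 (SE; edgeR adjusted p = 0.00601 and 0.00296), in opposite directions and past the threshold in every alternative. For ATP synthase subunits 5 of 15 tested genes rose and 0 fell, with a median of 0.86 (corrected, 3 higher and 0 lower, median 0.05). ATP5F1B, the catalytic beta subunit, had 582 and 526 CPM in the Neoribocic libraries, against 320.1 and 249 CPM in the DMSO libraries, at 0.96 ± 0.21 (SE; edgeR adjusted p = 0.00792), and 0.58 (edgeR adjusted p = 0.0561) corrected. It did not pass with the correction (0.0561) and without Neoribocic replicate 1 (0.0515) (range 1.96e-04 to 0.0561). Of the regulators of mitochondrial biogenesis 3 of 13 tested genes rose and 1 fell, with a median of 0.09 (corrected, 2 higher and 0 lower, median 0.11). POLRMT, the mitochondrial RNA polymerase, had 157 and 117 CPM in the Neoribocic libraries, against 66.4 and 59.1 CPM in the DMSO libraries, at 1.13 ± 0.22 (SE; edgeR adjusted p = 0.00500), or 0.63 corrected, and past the threshold in every alternative.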
